A study of Mus musculus with 9 samples.

Results

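Serotonin (5-hydroxytryptamine) acts in the hippocampus through a family of receptors, and the genes described here are 7 of them: Htr1a, Htr2a, Htr2c, Htr3a, Htr4, Htr5a and Htr7. They were chosen by name, with earlier results of these data known, and make up 7 of the 14779 genes of the table. The Ensembl identifier of each row was matched to its symbol in the GENCODE M21 annotation. The table holds 6 other serotonin receptor genes, which are given below. All 7 passed the filter on low counts and were tested. Polyadenylated RNA of mouse hippocampus was measured in 9 libraries, 3 in each of 3 groups, and the design text gives 3 mice a group. In the Air+IgG group the mice were kept in air and in the CIE+IgG group they underwent chronic intermittent ethanol exposure (CIE), and both carry the treatment label iso beside the IgG of their titles, IgG being the control immunoglobulin. Mice of the CIE+IL17 Ab group underwent the same exposure and received an antibody that binds the cytokine interleukin 17A. There was no group kept in air and given this antibody, so every antibody library is also an ethanol library. Strain, genotype, sex, age, doses and the times of exposure and treatment are not stated in the labels.

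Serotonin is made by neurons of the raphe nuclei of the brainstem, whose axons reach the hippocampus, so receptor transcripts are read from the receiving cells while most of the transcripts for making serotonin lie elsewhere. The receptors fall into classes by what they couple to. Htr1a and Htr5a encode receptors coupled to Gi/o proteins, which lower cyclic AMP, and the Htr1a receptor opens inwardly rectifying potassium channels and quiets pyramidal neurons. Htr4 and Htr7 encode receptors coupled to Gs, which raise cyclic AMP. Htr2a and Htr2c encode receptors coupled to Gq, which activate phospholipase C, and Htr3a encodes a subunit of a cation channel opened directly by serotonin. Htr1a and Htr4 are known for expression in hippocampal pyramidal neurons, Htr3a for a class of inhibitory interneurons, Htr2c for the choroid plexus, the secretory epithelium of the ventricles, and Htr7 for the thalamus as well as the hippocampus.

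The sequence just upstream of the first annotated transcript start is shown for Htr1a, a member that fell, for Htr7, the member that rose, and for Htr2c, the most variable of these 3 by library. The bases are from the RefSeq promoter table on GRCm38.p6, which held 5 of the 7 genes (of the 3 that fell, Htr1a only), read 5′ to 3′ on the strand of the gene, with each CG dinucleotide in capitals. Htr1a is given for chr13:105443443-105443638 on the plus strand, Htr7 for chr19:36057508-36057610 on the minus strand and Htr2c for chrX:146962263-146962512 on the plus strand.
Htr1a: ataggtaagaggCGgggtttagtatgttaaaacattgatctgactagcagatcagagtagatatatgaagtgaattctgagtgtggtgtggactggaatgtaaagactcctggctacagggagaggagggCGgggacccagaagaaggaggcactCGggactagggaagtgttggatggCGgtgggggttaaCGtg
Htr7: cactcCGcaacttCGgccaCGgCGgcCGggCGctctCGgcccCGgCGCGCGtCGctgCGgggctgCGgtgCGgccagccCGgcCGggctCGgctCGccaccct
Htr2c: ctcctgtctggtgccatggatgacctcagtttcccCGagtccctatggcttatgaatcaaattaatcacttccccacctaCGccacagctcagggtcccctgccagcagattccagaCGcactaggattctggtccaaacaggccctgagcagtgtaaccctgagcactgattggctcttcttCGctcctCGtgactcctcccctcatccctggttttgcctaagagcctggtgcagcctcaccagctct
The stretch of Htr1a holds 5 CG in 196 bases, that of Htr7 19 CG in 103 bases and that of Htr2c 5 CG in 250 bases. The RefSeq table gives a 300-base window, 250 bases before its own start and 50 after it. Over this whole window Htr7 was 81% G or C with 46 CG, and 99.3% of the 32851 promoters had a lower GC content. Only the 103 bases shown, with 19 of the 46 CG, lie before the Htr7 gene start of GENCODE M21. The Htr1a window was 52.3% G or C with 7 CG, against a median of 52.7% and 7 CG over all promoters. Those of Htr2a, Htr2c and Htr5a were 52%, 56.3% and 61.3% G or C with 6, 5 and 14 CG. A GC box, searched as GGGCGG on both strands, was found 1 time each in the windows of Htr1a and Htr2a and is in 35.7% of all promoters. The cyclic AMP response core TGACG was found 1 time in Htr7 and is in 20.8% of promoters. These matches describe letters in a window and no binding was measured.

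Library totals ran from 7372658 to 11894628 estimated counts, and CPM below is the usual count scaled to library size, here after TMM adjustment. The leucyl-tRNA synthetase gene Lars2 had 593544 counts in Air+IgG replicate 2 and 495056 in CIE+IL17 Ab replicate 1, against 301 to 2167 in the other 7 libraries, so results that rest on these 2 libraries are also given without them. Markers of neighbouring tissue and of CA1 neurons of the hippocampus itself differed between groups. The summed CPM of the 12 thalamus and habenula markers was 237 to 340 in Air+IgG, 300.3 to 583 in CIE+IgG and 1319.8 to 2342 in CIE+IL17 Ab, and that of the 9 CA1 pyramidal neuron markers was 689 to 774, 492 to 725 and 168 to 305. All 12 thalamus and habenula markers and all 9 CA1 markers were detected, and the habenular factor Pou4f1 was at 0 in 4 of the 6 IgG libraries. In bulk tissue, fewer cells of a type and less RNA per cell cannot be told apart.

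In the air controls the 7 genes lay within a narrow range once divided by exon length. In CPM per kilobase of exon, Htr1a stood at 9.24 ± 0.268 (SD, n = 3), Htr2c at 8.79 ± 5.95, Htr4 at 6.75 ± 1.71, Htr3a at 4.08 ± 1.02, Htr5a at 3.88, Htr7 at 2.75 and Htr2a at 2.60. Of the neighbours in this order, Htr4 and Htr3a were the only pair whose libraries did not overlap. After ethanol with IgG, Htr2c was first at 15.5 CPM per kilobase and did not overlap the next gene, Htr1a, at 7.50, while the other neighbours, down to Htr2a at 2.79, overlapped. In the antibody group Htr7 and Htr3a stood elsewhere in the order. Htr7 was second at 7.87 CPM per kilobase, after Htr2c at 21.7 and apart from Htr1a at 3.93, and Htr3a was last at 0.897.

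Ethanol exposure under IgG left the 7 receptor genes without a call. No member passed an adjusted p of 0.05 (edgeR quasi-likelihood test, Benjamini-Hochberg over 14696 genes), and percent called over all genes was 0%. Each of the 7 had an adjusted p of 0.9997 in this comparison. At an unadjusted p under 0.05 the members again counted 0 of 7, against 2.76% of all genes, and DESeq2 called 0 members and 6 genes in all. The groups did not overlap for 1 of 7 members, Htr1a, against 9.44% of all genes. The median log2 fold change of the members was -0.034 and that of all genes -0.0073, and the median size without sign was 0.27 beside 0.10.

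The antibody in ethanol-exposed mice went with larger differences, none of which passed over all genes. Htr7 was higher and Htr1a, Htr3a and Htr4 were lower in all 3 antibody libraries than in any CIE+IgG library, so 4 of 7 members did not overlap, against 25.9% of all genes. By adjusted p 0 of 7 were called, against 3.18% of all genes (1.78% higher and 1.41% lower), and the same 4 had an unadjusted p under 0.05, against 22.3% of all genes. DESeq2 called those 4, limma-voom called Htr4 only, and the fit with the label number as a block called Htr1a, Htr4 and Htr7. Without CIE+IgG replicate 3 Htr4 passed, and without antibody replicate 3 Htr3a and Htr4 passed. The median log2 fold change was -0.62 over the members and 0.015 over all genes, and the median size without sign was 0.95 beside 0.20.

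Against the air controls, 4 of the 7 receptor genes were called in the group given ethanol and the antibody. All 4 calls ended when any 1 air library was left out, and with the replicate number as a block. Thalamus and habenula markers and CA1 markers also differed between these groups, and their part in these calls was not tested. Htr7 rose 2.84-fold, while Htr3a fell 4.47-fold, Htr1a 2.38-fold and Htr4 2.21-fold. Over all genes 13.5% were called, 6.83% higher and 6.71% lower, beside 1 member higher and 3 lower. The groups did not overlap for 5 members (the 4 called and Htr2c), against 35.3% of all genes, and the same 5 had an unadjusted p under 0.05, against 32% of all genes. The median log2 fold change of the members was -0.52, beside 0.012 for all genes, and the median size without sign was 1.25 beside 0.24. These 2 antibody comparisons share their 3 antibody libraries, and both comparisons with air share the air libraries, so they are not separate evidence.

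**Figure D1:**
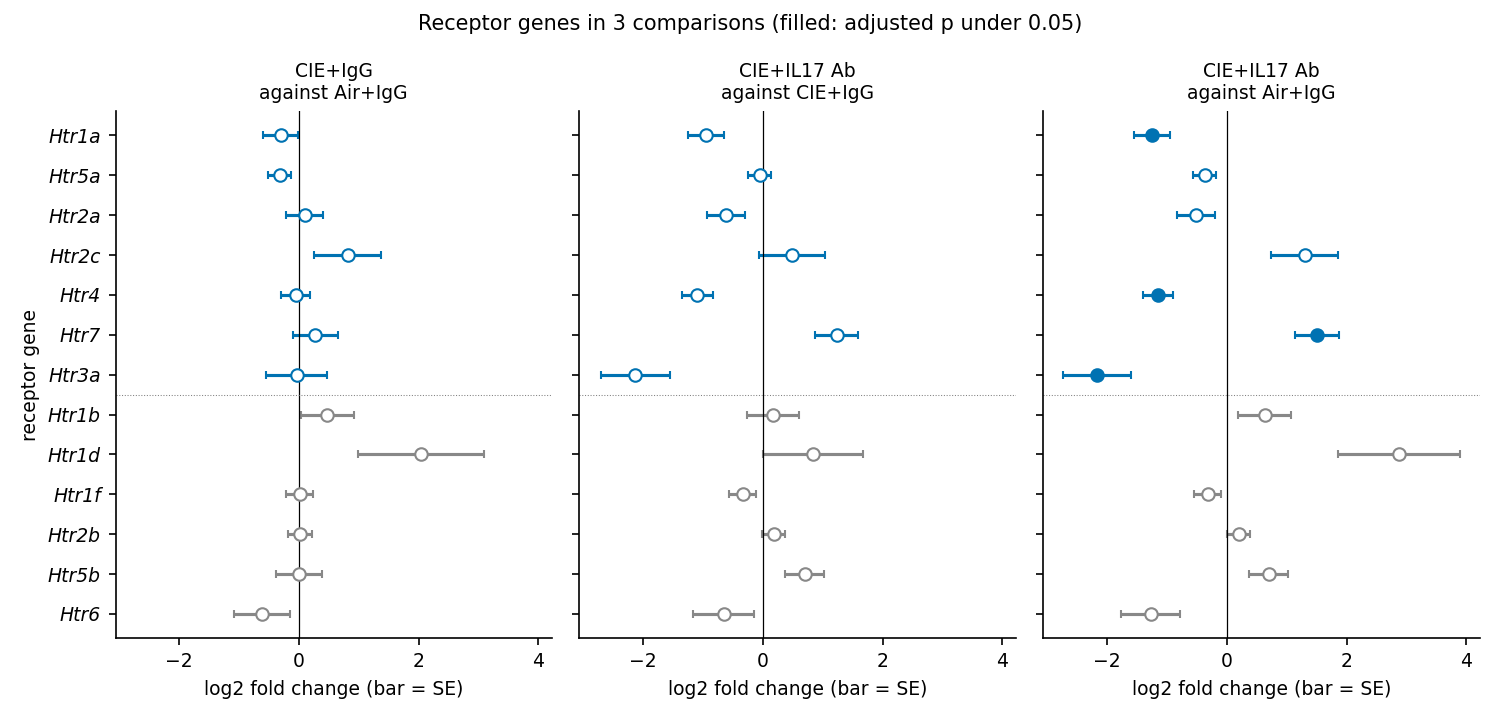
Log2 fold change with its standard error (x axis) of each serotonin receptor gene (y axis; the 7 genes above the dotted line, 6 other receptor genes below it) in the 3 comparisons. Filled points have an adjusted p under 0.05: Htr1a, Htr3a, Htr4 and Htr7 in the comparison of CIE+IL17 Ab with Air+IgG and no gene in the other panels.

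Htr1a (ENSMUSG00000021721, chr13:105443639-105448122 on the plus strand, GRCm38), the Gi/o-coupled receptor of pyramidal neurons, had 41.8, 42.4 and 40.1 CPM in Air+IgG. In CIE+IgG it had 38.8, 35.7 and 26.5 CPM, and in CIE+IL17 Ab 23.8, 9.24 and 19.8 CPM. The air libraries lay close together, each CIE+IgG library lay below all of them, and each antibody library lay below all CIE+IgG libraries. The group means were 41.4 ± 1.20, 33.6 ± 6.40 and 17.6 ± 7.52 CPM (SD, n = 3). For ethanol against air the log2 fold change was -0.30 (SE 0.29). It was -0.95 (SE 0.30) for the antibody against IgG, with an adjusted p of 0.115, and -1.25 (SE 0.30) for the antibody group against air, with an adjusted p of 0.0329. The lowest value, in antibody replicate 2, was in the library with the highest thalamus and habenula sum (2342 CPM). In the antibody group against air, 6 of 9 CA1 markers fell by adjusted p, beside 6.71% of all genes called lower. All 11 dentate gyrus granule cell markers were also below 0 there, with a median log2 fold change of -1.03, and 0 passed. Of the 9 CA2 and CA3 markers, 3 rose and 2 fell by adjusted p. The part of these cells in the Htr1a result was not tested.

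Htr5a (ENSMUSG00000039106, chr5:27842149-27855088 on the plus strand), the other Gi/o-coupled member, had 23.0, 15.1 and 24.6 CPM in Air+IgG, 15.4, 19.1 and 16 in CIE+IgG and 18.5, 14.2 and 16.1 in CIE+IL17 Ab. The 3 groups overlapped throughout, and it was the least variable member, spanning 0.79 on the log2 scale over the 9 libraries. On the log2 scale Htr5a differed by -0.32 (SE 0.19) for ethanol against air, -0.053 (SE 0.19) for the antibody against IgG and -0.37 (SE 0.19) for the antibody group against air, with adjusted p-values of 0.908 and 0.220 for the last 2. Without the 2 Lars2-rich libraries the last value was -0.65 with an adjusted p of 0.0426.

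Htr4 (ENSMUSG00000026322, chr18:62324204-62496577 on the plus strand), a Gs-coupled receptor, had 30.6, 42.5 and 26.3 CPM in Air+IgG, 35.7, 35.1 and 24.9 in CIE+IgG and 16.8, 10.5 and 17.8 in CIE+IL17 Ab. The IgG groups overlapped, and every antibody library lay below both. Ethanol against air gave a log2 fold change of -0.052 (SE 0.25). It was -1.09 (SE 0.25) for the antibody against IgG, with an adjusted p of 0.0563, and -1.14 (SE 0.25) against air, with an adjusted p of 0.0256. Antibody replicate 2 again held the lowest value. The highest, in Air+IgG replicate 2, was in the library with the highest sum of the dentate gyrus markers (1587.5 CPM). Other libraries did not follow this order. Antibody replicate 3, with 17.8 CPM of Htr4, had a dentate gyrus sum of 909 CPM. That was above the 818 and 769 CPM of Air+IgG replicates 1 and 3, which had more Htr4. The part of CA1 and dentate gyrus cells, whose markers are given with Htr1a, in the Htr4 result was not tested.

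Htr7 (ENSMUSG00000024798, chr19:35958734-36057507 on the minus strand), the other Gs-coupled member, went the opposite way. It had 10.4, 5.38 and 12.3 CPM in Air+IgG, 12.5, 7.37 and 14.4 in CIE+IgG and 22.8, 37.8 and 19.6 in CIE+IL17 Ab. The IgG groups overlapped and the antibody libraries all lay above them, with replicate 2 the highest. Its log2 fold change was 0.27 (SE 0.38) for ethanol against air, and ran from 0.0034 without Air+IgG replicate 2 to 0.52 without Air+IgG replicate 3. It was 1.23 (SE 0.37) for the antibody against IgG, with an adjusted p of 0.100, and 1.5 (SE 0.37) against air, with an adjusted p of 0.0349. In the comparison with air, 11 of 12 thalamus and habenula markers rose by adjusted p, beside 6.83% of all genes called higher. The library with the most Htr7 also had the highest sum of these markers. Their part in the Htr7 result was not tested.

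**Figure D2:**
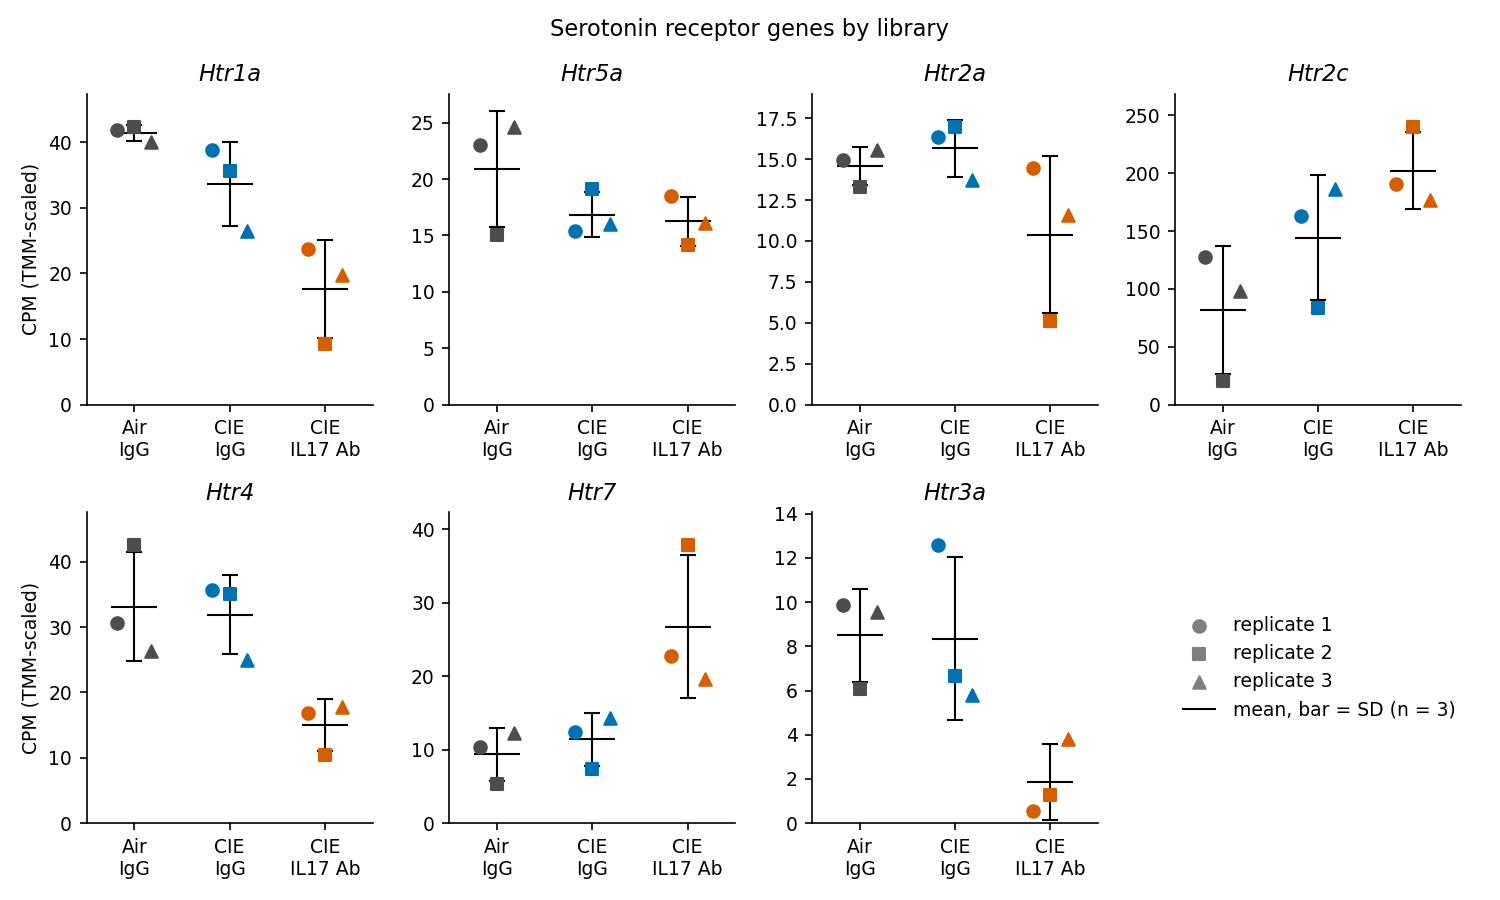
CPM after TMM scaling (y axis, from 0) of each of the 7 genes in the 3 groups (x axis), with 1 point per library and a bar at the group mean with its SD. Antibody libraries lie below both IgG groups for Htr1a, Htr3a and Htr4 and above them for Htr7, while Htr2c is low in Air+IgG replicate 2 (20.2 CPM).

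Htr2a (ENSMUSG00000034997, chr14:74640840-74709494 on the plus strand), a Gq-coupled receptor of cortical and hippocampal neurons, had 15.0, 13.3 and 15.5 CPM in Air+IgG, 16.3, 17.0 and 13.7 in CIE+IgG and 14.5, 5.09 and 11.6 in CIE+IL17 Ab. Only antibody replicate 2 stood far below the rest, and the antibody group overlapped both IgG groups. For ethanol against air, antibody against IgG and antibody group against air the log2 fold changes were 0.098 (SE 0.31), -0.62 (SE 0.31) and -0.52 (SE 0.31), the last 2 with adjusted p-values of 0.288 and 0.295. Without antibody replicate 2 the last 2 values were -0.27 and -0.18.

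Htr2c (ENSMUSG00000041380, chrX:146962513-147197277 on the plus strand), the other Gq-coupled member, spanned 3.56 on the log2 scale over the 9 libraries, second to Htr3a with 4.06. It had 128, 20.2 and 98.3 CPM in Air+IgG, 163, 83.6 and 186 in CIE+IgG and 191, 240.2 and 177 in CIE+IL17 Ab. Air+IgG replicate 2 was far below all others, the air and CIE+IgG groups overlapped, and the antibody libraries lay above the air libraries but overlapped CIE+IgG. The log2 fold change was 0.81 (SE 0.56) for ethanol against air, 0.49 (SE 0.55) for antibody against IgG and 1.3 (SE 0.56) for the antibody group against air, with adjusted p-values of 0.664 and 0.151 for the last 2. Without Air+IgG replicate 2 the first and the last were 0.35 and 0.83, and without Air+IgG replicate 1 they were 1.28 and 1.76. The value for antibody against IgG was 0.21 without CIE+IgG replicate 2.

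Markers of the choroid plexus moved with Htr2c in part of the libraries. The 12 markers, all detected, summed to 845 CPM in Air+IgG replicate 2, against up to 5878 in the other air libraries, and to 4552 to 8011 CPM in CIE+IgG. In antibody replicate 1 they summed to 448 CPM, the lowest of all 9 libraries, while Htr2c was at 191 CPM there. Antibody replicates 2 and 3 had the highest sums, 10166 and 8386 CPM. None of the 12 choroid plexus markers passed in any comparison. The thalamus and habenula markers summed to 1319.8 to 2342 CPM in the antibody libraries, above all IgG libraries. The part of either tissue in the Htr2c values was not tested. The annotation also places 8 small RNA genes on the same strand inside the gene.

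Htr3a (ENSMUSG00000032269, chr9:48899213-48911099 on the minus strand), the channel subunit, had 9.86, 6.05 and 9.57 CPM in Air+IgG, 12.6, 6.67 and 5.78 in CIE+IgG and 0.556, 1.25 and 3.80 in CIE+IL17 Ab. The IgG groups overlapped and no antibody library reached them. The estimated counts were 91, 45 and 101, then 117, 57 and 62, then 4, 16 and 36, so the antibody values rest on 56 counts over 3 libraries, beside 237 and 236 in the IgG groups. Ethanol against air gave a log2 fold change of -0.034 (SE 0.51) for Htr3a. It was -2.13 (SE 0.57) for antibody against IgG, with an adjusted p of 0.0772, and -2.16 (SE 0.57) against air, with an adjusted p of 0.0411. A gene on the opposite strand, Gm32335, overlaps Htr3a, and the libraries are strand-specific by their kit, though the counting setting is not given in the sources used here.

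Of the 12 interneuron markers, 4 fell in the antibody group against air and 1 rose, beside 13.5% of all genes called. Those that fell were Sst (log2 fold change -1.32), Npy (-1.51), Cck (-1.58) and Cnr1 (-1.21), which are expressed in partly overlapping interneuron classes, and the calcium-binding protein gene Calb2 rose (2.85). Of the 3 markers shared by all GABA-releasing cells, Gad1 and Gad2 make GABA and Slc32a1 loads it into vesicles. Their log2 fold changes were 0.0034, 0.87 and 0.91 with adjusted p-values of 0.996, 0.146 and 0.107, and antibody and air libraries did not overlap for Gad2 and Slc32a1. Vip had -2.10 with an adjusted p of 0.0857. Reln, Ndnf and Pvalb had -0.40, -0.49 and 0.68, with adjusted p-values of 0.420, 0.145 and 0.439. The part of these cells in the Htr3a result was not tested.

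The 4 calls against air kept their direction under every alternative that tested the gene but not their side of the threshold. The log2 fold change ran from -1.53 to -0.93 for Htr1a, which passed in 12 of 20 alternatives. It ran from -1.30 to -0.93 for Htr4 (13 of 20), from 1.16 to 1.74 for Htr7 (11 of 20) and from -3.14 to -1.80 for Htr3a (8 of 19). Leaving out any 1 of the air libraries ended all 4 calls, with adjusted p-values of 0.0811, 0.106, 0.0630 and 0.0852 for Htr1a, Htr3a, Htr4 and Htr7 without replicate 1. Without replicate 2 they were 0.0897, 0.0782, 0.0782 and 0.0914, and without replicate 3 they were 0.0792, 0.104, 0.0540 and 0.0668. Without antibody replicate 2, Htr1a alone passed, and without CIE+IgG replicate 1, Htr4 alone passed. Without antibody replicate 1 or without CIE+IgG replicate 2, Htr3a was lost. Without both Lars2-rich libraries none of the 4 passed, with adjusted p-values of 0.0514, 0.0705, 0.0675 and 0.0786. Among the 6 libraries numbered 54 to 60 by their labels, a possible batch, the log2 fold changes were -0.95, -1.81, -1.07 and 1.41 for Htr1a, Htr3a, Htr4 and Htr7, and none passed, with adjusted p-values of 0.109, 0.299, 0.111 and 0.169. The 3 libraries numbered 37 to 39 hold 1 of each group and allow no test: in them, from air to CIE+IgG to CIE+IL17 Ab, Htr1a had 40.1, 26.5 and 9.24 CPM, Htr4 26.3, 24.9 and 10.5, Htr3a 9.57, 5.78 and 1.25, and Htr7 12.3, 14.4 and 37.8.

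**Figure D3:**
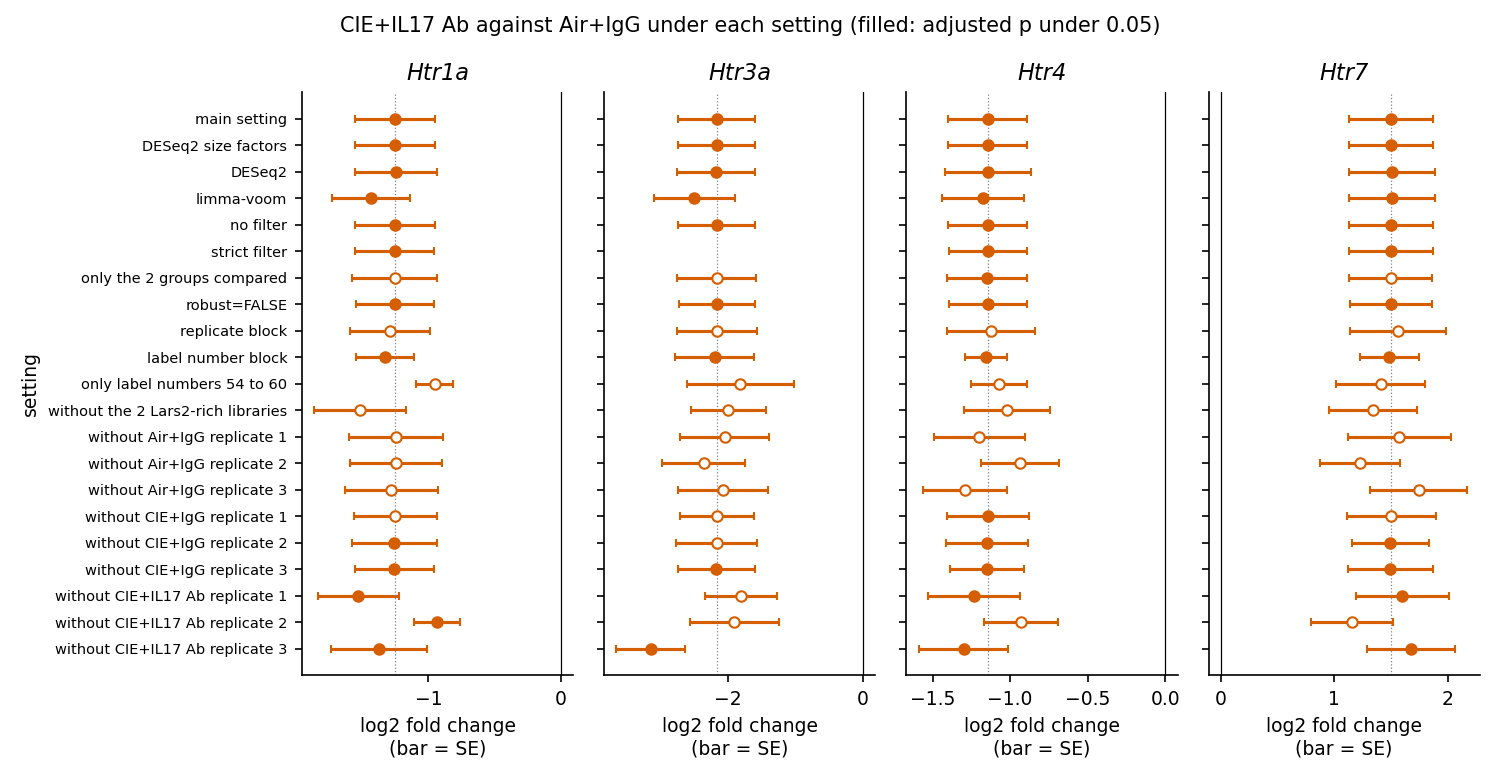
Log2 fold change with its standard error (x axis) of Htr1a, Htr3a, Htr4 and Htr7 in CIE+IL17 Ab against Air+IgG under each setting (y axis), with filled points for an adjusted p under 0.05 and a dotted line at the value of the main setting. Every point of a gene lies on the same side of 0, from -3.14 to -0.93 for the 3 genes that fell and from 1.16 to 1.74 for Htr7, while filled and open points alternate.

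The share of each gene in the summed CPM per kilobase of the 7 genes shows the same data as a make-up, in which shares depend on each other. The sum itself was 44.0, 29.9 and 40.4 CPM per kilobase in Air+IgG, 48.9, 36 and 43.4 in CIE+IgG and 42.1, 45.2 and 39.6 in CIE+IL17 Ab, so the groups overlapped in total. Htr1a held 21.2%, 31.6% and 22.1% in air and 12.6%, 4.56% and 11.2% with the antibody. Htr7 held 6.96%, 5.29% and 8.97% in air and 15.9%, 24.6% and 14.6% with the antibody. Htr2c, the largest share in 8 of the 9 libraries, held 48.5%, 57% and 47.7% in the antibody group, above the 24.9% to 46.1% of CIE+IgG and the 7.22% to 31.1% of air.

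Grouped by coupling, the Gs pair had overlapping shares of the 7-gene sum in the 3 groups while its 2 genes went opposite ways. Htr4 and Htr7 together held 21.1%, 34.2% and 22.2% in air, 22.4%, 25.9% and 21.4% in CIE+IgG and 24.0%, 29.3% and 23.7% with the antibody. This overlap depended on counting Htr2c in the sum. With Htr2c left out, Htr7 held 5.7% to 18.05% in the IgG libraries and 27.9% to 57.1% with the antibody. Htr4 held 17.96% to 31.2% in the IgG libraries and 10.98% to 17.5% with the antibody. On that base the pair held more in each antibody library than in any IgG library. Within the pair, the per-length ratio of Htr7 to Htr4 was 0.492, 0.183 and 0.675 in air, 0.505, 0.303 and 0.833 in CIE+IgG and 1.96, 5.2 and 1.59 with the antibody. Htr7 was thus the more abundant of the pair per length in the 3 antibody libraries and in none of the other 6. The ratio of Htr7 to Htr1a was 0.168 to 0.715 in the IgG libraries and 1.27, 5.40 and 1.31 with the antibody. The Gi/o pair, Htr1a with Htr5a, held 30.9%, 40.9% and 33.4% in air, 23.5%, 32.0% and 20.5% in CIE+IgG and 20.7%, 10.4% and 18.7% with the antibody, so the antibody group lay below air and overlapped CIE+IgG. The Gq pair held 37.2%, 15.2% and 32.9%, then 41.8%, 33.3% and 51.7%, then 54.6%, 59.0% and 53.0%, with the antibody libraries above all others. Most of the share in the antibody libraries was Htr2c. Htr2a held 6.12%, 2.01% and 5.22% there, against 5.64% to 8.40% in the IgG libraries, and neither gene was called in any comparison.

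**Figure D4:**
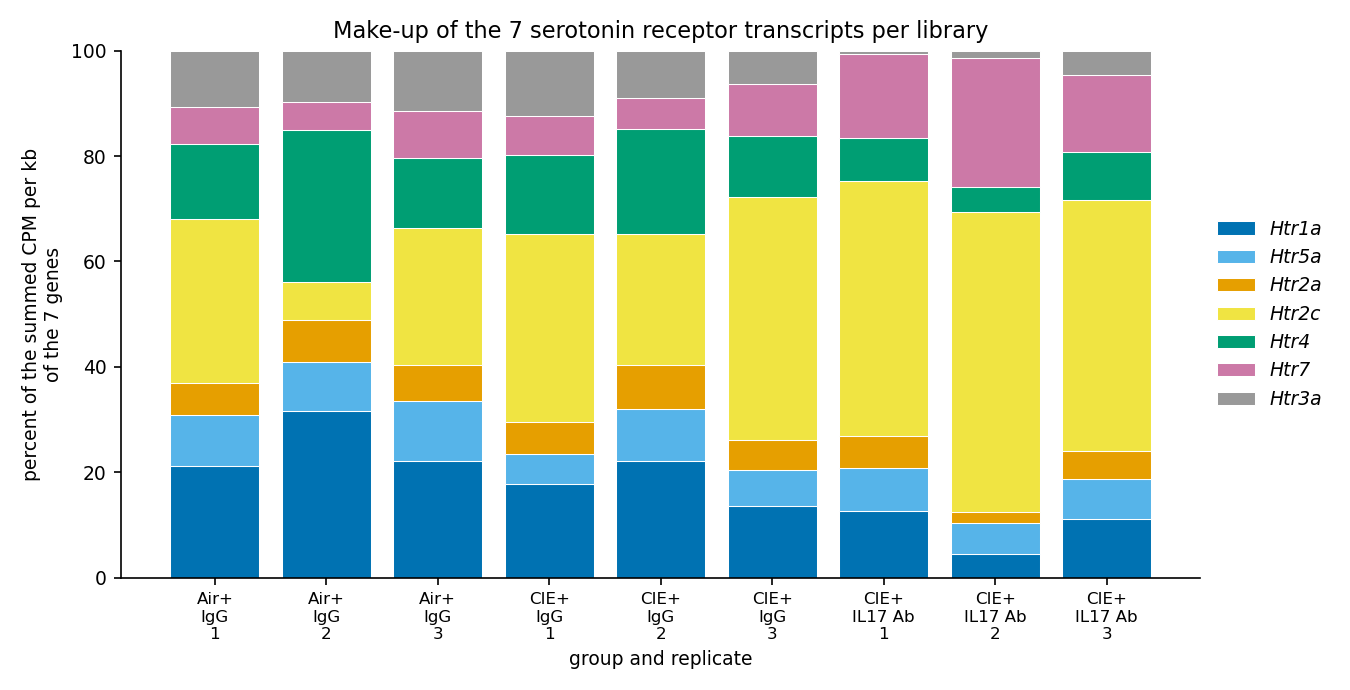
Share of each of the 7 genes in their summed CPM per kilobase (y axis, percent, stacked to 100) in each library (x axis, group and replicate). The Htr2c part is largest in the antibody libraries (47.7% to 57%) and smallest in Air+IgG replicate 2 (7.22%), and the Htr1a part is smallest in antibody replicate 2 (4.56%).

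The table holds 6 further serotonin receptor genes that were tested (Htr3b was not analysed here), and none was called in any comparison. Htr6, a Gs-coupled receptor, had 2.93, 2.29 and 3.13 CPM in air, 2.36, 1.52 and 1.58 in CIE+IgG and 0.417, 0.783 and 2.22 with the antibody, and its log2 fold change against air was -1.27 (SE 0.49, adjusted p 0.116). Htr1d, a Gi/o-coupled receptor found on axon endings, had 6, 2 and 4 counts in air, 6, 1 and 49 in CIE+IgG and 29, 27 and 37 with the antibody. Its log2 fold change against air was 2.88 (SE 1.02, adjusted p 0.0937), and CIE+IgG replicate 3 held more than any antibody library. That replicate also had the highest sum of the 11 striatum markers, 1523 CPM against 292 to 986 in the other 8 libraries, and their part in the Htr1d value was not tested. Antibody and air libraries did not overlap for these 2 genes of the 6, a share of 33.3% beside 35.3% of all genes. Htr1b, Htr1f, Htr2b and Htr5b had log2 fold changes against air of 0.64, -0.32, 0.20 and 0.70 with adjusted p-values of 0.362, 0.370, 0.531 and 0.179. Htr2b overlaps Psmd1 on the opposite strand.

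Of the genes that supply and remove serotonin, 10 of 13 were tested, and 3 rose against air and 0 fell, beside 13.5% called over all genes. The list median was 0.50 on the log2 scale. Without Air+IgG replicate 3 this comparison called 0 genes in all, which ends these calls and those against air in the lists below. In both antibody comparisons thalamus and habenula markers were higher and CA1 markers lower, with list medians of 3.20 and -1.87 against air. The part of these cells in the calls of this list and of the lists below was not tested. Maob, a mitochondrial enzyme that breaks down amines, went from 24.0 ± 3.03 CPM in air to 57 ± 23.7 with the antibody (SD, n = 3), a log2 fold change of 1.25 (SE 0.28, adjusted p 0.0270 by edgeR). Qdpr, which recycles the cofactor of tryptophan hydroxylase, rose by 0.63 (SE 0.12, adjusted p 0.0177), and Ddc, which makes serotonin and dopamine from their precursors, by 0.85 (SE 0.23, adjusted p 0.0438). Maoa had 0.53 with an adjusted p of 0.0520. Tph2, the tryptophan hydroxylase of raphe neurons, was low, at 1.46 ± 0.421 CPM in air and 1.94 ± 2.0 with the antibody, with a log2 fold change of 0.33 and an adjusted p of 0.783. The list had 0 calls in the other 2 comparisons, with medians of 0.22 for ethanol against air and 0.47 for antibody against IgG. Slc6a4, the serotonin transporter, was not analysed here.

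Among the 11 genes of the Gq arm, 1 rose and 2 fell for antibody against IgG, and 1 rose and 4 fell against air. Over all genes 3.18% and 13.5% were called in these comparisons, and the list medians were -0.59 and -0.63. The phospholipase C genes parted: Plcb4 went from 47.8 ± 11.9 CPM in air and 73.1 ± 30.1 in CIE+IgG to 272 ± 72.1 with the antibody, a log2 fold change of 2.5 against air (adjusted p 0.0105). Plcb1 went from 396 ± 26.0 and 367 ± 9.98 to 196 ± 52.2 CPM, a log2 fold change of -1.01 (adjusted p 0.0127). The protein kinase C gene Prkcb (-0.94, adjusted p 0.0161) and the G protein gene Gnaq (-0.60, adjusted p 0.0305) fell as well. Plcb4, Plcb1 and Prkcb also passed for antibody against IgG, with log2 fold changes of 1.89, -0.91 and -0.90. Without CIE+IgG replicate 1 that comparison called 0 genes in all, which ends these calls and that of Adarb1 below. With only the 2 groups compared it called 1 gene in all.

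Against air, where 13.5% of all genes were called, 2 of the 11 genes of the Gi/o arm fell and none rose. They were Kcnj3, a subunit of the potassium channel that the Htr1a receptor opens, with a log2 fold change of -0.93 (adjusted p 0.0263), and the G protein gene Gnaz with -0.33 (adjusted p 0.0366). Of the 15 genes of the Gs arm, 2 fell against air and none rose, again beside 13.5% of all genes called. These 2 were the adenylyl cyclase genes Adcy2 (-0.90, adjusted p 0.0321) and Adcy9 (-1.10, adjusted p 0.0325), while the list median was 0.28. Both arms had 0 calls for antibody against IgG, beside 3.18% of all genes.

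Of 11 genes listed as receptor partners, 1 rose and 1 fell against air, beside 13.5% of all genes called. The list is not limited to proteins that bind serotonin receptors. Adarb1 had the largest change of the list. It encodes an adenosine deaminase that edits RNA, including the Htr2c transcript, and went from 234 ± 21.3 CPM in air and 242 ± 13.0 in CIE+IgG to 497 ± 88.6 with the antibody (SD, n = 3). The log2 fold change was 1.09 (SE 0.13, adjusted p 0.00985 by edgeR) against air and 1.04 (SE 0.13, adjusted p 0.0178) against IgG. Gene counts carry no information on editing itself. Caly, a vesicle protein, fell against air (-0.46, adjusted p 0.0445), and S100a10, which binds serotonin receptors and helps bring them to the membrane, had a log2 fold change of -0.12 with an adjusted p of 0.767. Ethanol against air gave 0 calls in each of these 5 lists.

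**Figure D5:**
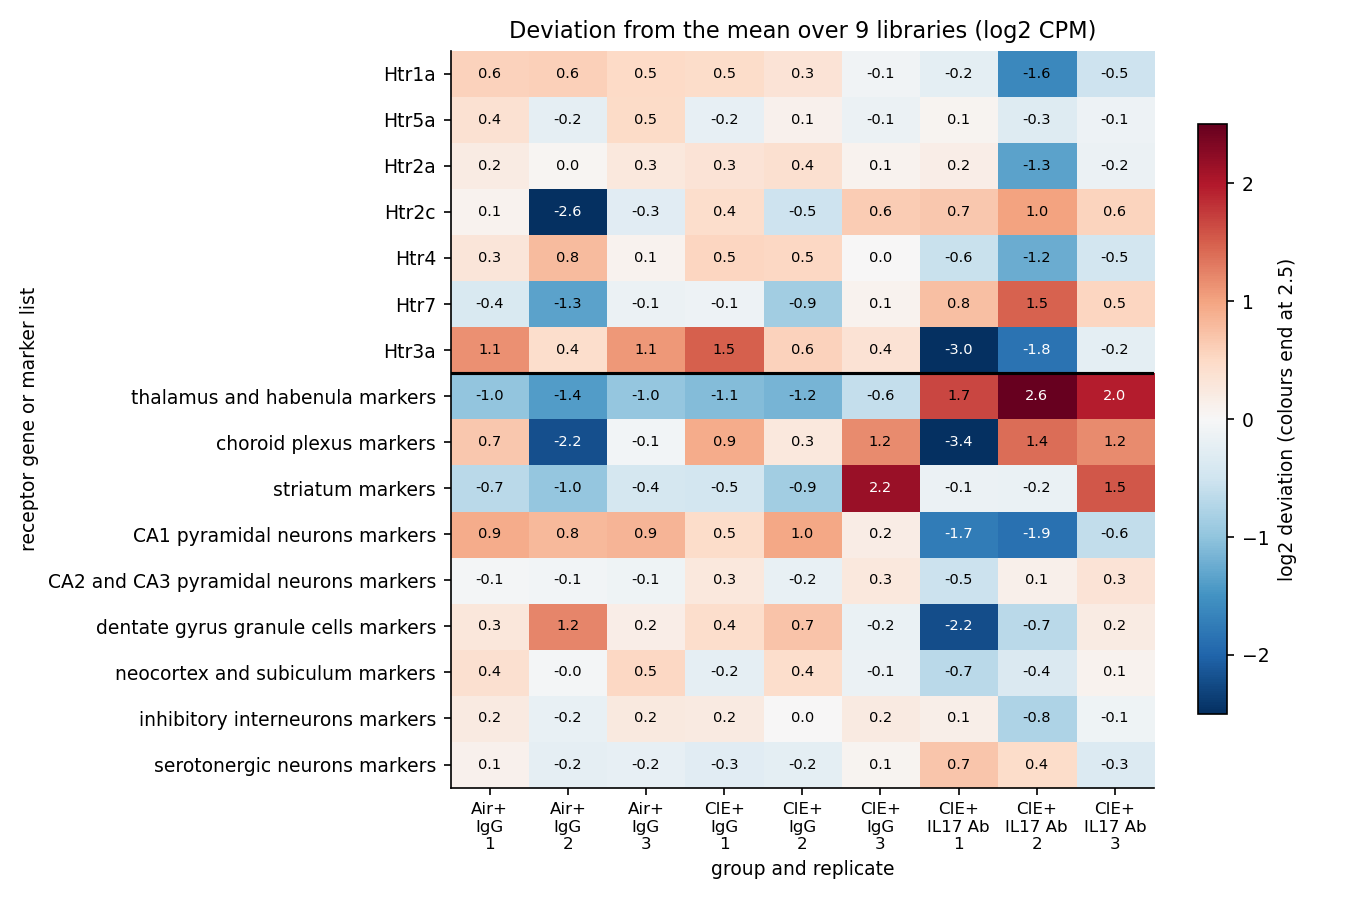
Deviation of log2 CPM from the mean over the 9 libraries (colour, ending at 2.5) for the 7 genes above the line and the marker lists below it (y axis), by library (x axis). In the 3 antibody libraries Htr7 is high together with the thalamus and habenula list, and Htr1a, Htr3a and Htr4 are low together with the CA1 list, while the choroid plexus list is low in Air+IgG replicate 2 and in antibody replicate 1. The dentate gyrus list is low in antibody replicates 1 and 2 (-2.23 and -0.67) and not in replicate 3 (0.21).

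The genes whose pattern over the 9 libraries was most like that of a member were ranked by the root mean square difference of centred log2 CPM, among 12121 genes with a mean of at least 5 CPM, as a description of 9 libraries that share their groups. For Htr1a they were Kcns3 (0.13), Sst (0.17) and Prss35 (0.18), against a spread of Htr1a itself of 0.67. For Htr4 they were Asphd2 (0.11), Wscd2 (0.11) and Slitrk5 (0.12), against a spread of 0.60. Htr7 was nearest to Mrgpre (0.17), Epb41l4a (0.18) and Sema4g (0.20), against 0.79. Htr3a, with the widest spread of the 7 at 1.28, was nearest to Tnfaip8l3 (0.27), Npy2r (0.30) and Frzb (0.30). Htr2c was nearest to Otx2 (0.25), then to Trpc7 (0.29) and Vat1l (0.31), against 1.01. Otx2, a transcription factor of the choroid plexus, had at least 27.1 CPM in each antibody library, above the 19.1 CPM of the highest air library, whereas the choroid plexus list as a whole had its lowest sum, 448 CPM, in antibody replicate 1. Htr2a was nearest to Traf3 (0.17) and Elmod1 (0.18), against 0.49. Htr5a spanned less than 1 on the log2 scale and was not compared. Between members the nearest pairs were Htr1a with Htr4 (0.25) and Htr1a with Htr2a (0.31), and the farthest was Htr3a with Htr7 (1.91). Among the members, Htr2c and Htr7 were each nearest to the other (0.56).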

How the data were processed

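RNA of 9 hippocampus libraries was sequenced with a strand-specific polyadenylated RNA kit, per the labels' protocols. The deposited table holds expected counts (estimated counts) that the authors made from the reads without scaling libraries to each other. Per the submitters' processing notes, STAR 2.5.1a, RSEM 1.3.0 and the build GRCm38 were used; which annotation release is not given in the sources used here. Reads shared by similar genes are split among them in such counts. The lowest third-largest count of any gene in the deposited table is 6, so a filter may have preceded deposit.

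Counts were rounded, and genes kept with filterByExpr by group (minimum count 10), which left 14696. The test was edgeR 4.0.16 (R 4.3.3), with TMM factors and its quasi-likelihood test (robust=TRUE), on all 9 libraries with 6 residual degrees of freedom. Adjustment was by Benjamini-Hochberg over all genes, and under 0.05 a gene was called. The standard error is the log2 fold change divided by the square root of F. The steps were tested on simulated data. The common biological coefficient of variation was 0.189. CPM per kilobase used the union exon length of GENCODE M21. Symbols matched 14628 identifiers.

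Groups follow the sample titles. No 2 libraries were identical. Within a group, chi-square per degree of freedom between libraries was at least 4.05. The labels name no cultures or litters, so p-values measure the spread between these libraries. The label numbers, 37 to 39 in 3 libraries and 54 to 60 in 6, have no stated meaning and were used as a possible batch.

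The members, gene lists and tests were chosen with earlier results of these data known. Named are the members, the other receptors, up to 4 called genes with the smallest p of each pathway list, Tph2, Slc6a4, Maoa, Maob and S100a10, the 3 nearest genes in pattern (1 without a symbol is left out), and marker genes. All 12 interneuron markers are printed. Alternatives were DESeq2 1.42.0 and its size factors, limma-voom (limma 3.58.1), no filter, a filter at CPM above 1 in each of 9 libraries, only the groups compared, robust=FALSE, blocks for replicate or label number, the libraries numbered 54 to 60, leaving out the 2 Lars2-rich libraries, and each library left out in turn.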

Additional observations from a re-analysis of the deposited data

How the results depend on the processing

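Of the receptor genes, the test called 0 for antibody against IgG, but DESeq2 called 4, limma-voom 1 and the fit with the label number as a block 3. Each library left out in turn gave 0 to 2. Against air, where 4 were called, the fit of only the 2 groups gave 1, that with the replicate number as a block 0, the libraries numbered 54 to 60 gave 0, and leaving out the 2 Lars2-rich libraries 1, which was Htr5a. Each library left out in turn gave 0 to 4. Of all genes, DESeq2 called 6 for ethanol against air, against 0. For antibody against IgG, with 468 called, DESeq2 gave 1481, only the 2 groups 1, the replicate block 14, the label number block 776, and the libraries numbered 54 to 60 gave 1. Each library left out gave 0 to 1313. Against air, with 1990 called, only the 2 groups gave 1192, the replicate block 571, the libraries numbered 54 to 60 gave 2, and leaving out the Lars2-rich libraries 1067. Each library left out gave 0 to 2305. Replicate numbers are shared across groups, but same-numbered libraries did not deviate together: their correlations ran from -0.27 to 0.249, and those of other pairs from -0.253 to 0.279. Small differences changed sign. Htr3a for ethanol against air (-0.034) was 0.27 in the libraries numbered 54 to 60 and ran from -0.45 to 0.18 with 1 library left out. Htr4 in that comparison (-0.052) was 0.16 without the Lars2-rich libraries and ran from -0.19 to 0.16. Htr5a for antibody against IgG (-0.053) was 0.0034 in the libraries numbered 54 to 60 and ran from -0.15 to 0.043. The strict filter gave no value for Htr3a. Fits on fewer libraries have fewer residual degrees of freedom. The cause of the other changes was not tested. Depth limits Htr3a, Htr6 and Htr1d, which had as few as 4, 3 and 1 counts in a library.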
